A study of Mus musculus with 15 samples.

Results

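The erythroid transcription factors examined here were Gata1, Klf1, Tal1, Gfi1b, Nfe2, Zfpm1 and Lmo2, and the erythropoietin receptor gene Epor was added as the receptor that acts beside them. These 8 genes were taken by symbol from the 55416 gene identifiers in the count files, and all 8 were found. Whole blood from cheek bleeds of young female C57BL/6 mice was sequenced, with 1 library per mouse and 5 mice in each of 3 groups. The early group had received αCTLA-4, an antibody against the checkpoint receptor CTLA-4, in 2 doses and an early neck dissection (ND), a surgical removal of the cervical lymph nodes. The late group had received the same antibody and a late ND, and the untreated group neither antibody nor surgery. Cells of 4MOSC1, a line from a mouse carcinoma of the oral cavity, were placed in the tongue and grown for 10 days according to the labels of all 15 libraries, those of untreated mice included, so whether the untreated mice bore tumors is unclear. The descriptions of the study differ on whether blood was drawn before or after the late ND, and "late" therefore names the group only. Both ND groups had received antibody, so a comparison of either with untreated mice cannot tell antibody and surgery apart.

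Red blood cell production is directed by a small set of DNA-binding proteins and their partners. GATA1, a zinc finger protein, binds GATA sequences with its cofactor FOG-1, the product of Zfpm1, and joins TAL1 and the bridging protein LMO2 in a complex that turns on erythroid genes. KLF1 acts on CACCC-type sequences such as that of the adult beta-globin promoter, NFE2 on the globin locus control region and on platelet genes, and GFI1B represses genes during erythroid and megakaryocytic maturation. EPOR carries the survival signal of erythropoietin in early erythroblasts. Circulating red cells have no nucleus, and the young ones among them, the reticulocytes, still hold RNA. Gata1, Tal1, Gfi1b, Nfe2, Zfpm1 and Lmo2 are also used by megakaryocytes, whose platelets circulate with RNA, and Lmo2 and Nfe2 are found in other blood lineages too.

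RefSeq promoters on GRCm38.p6 (a build older than the GRCm39 of the files) held 7 entries for 6 of the members, Gata1, Klf1, Tal1, Gfi1b, Zfpm1 and Epor, and none was held for Nfe2 and Lmo2. The 250 bases before the start of Gata1 and Zfpm1, whose proteins bind each other, and of Klf1 and Epor, the least abundant members, are shown because the results below separate these pairs by level. Capitals mark matches on either strand to GATA words (AGATAA or TGATAA, or the same words ending in G), to CCNCNCCC for KLF proteins, or to the E-box CAGNTG, and matches of different motifs overlapped in 0 of the 7 entries.
Gata1 (chrX:7967911-7968160, minus strand): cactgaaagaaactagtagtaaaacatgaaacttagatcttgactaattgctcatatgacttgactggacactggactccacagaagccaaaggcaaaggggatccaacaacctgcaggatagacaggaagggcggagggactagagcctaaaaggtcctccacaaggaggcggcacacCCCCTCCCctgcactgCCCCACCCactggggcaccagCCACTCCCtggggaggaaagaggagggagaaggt
Zfpm1 (chr8:122281891-122282140, plus strand): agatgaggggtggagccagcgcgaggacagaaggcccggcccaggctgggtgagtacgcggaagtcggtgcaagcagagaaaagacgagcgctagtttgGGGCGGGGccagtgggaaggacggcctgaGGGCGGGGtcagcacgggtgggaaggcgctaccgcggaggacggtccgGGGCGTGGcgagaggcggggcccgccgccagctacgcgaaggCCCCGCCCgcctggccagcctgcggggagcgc
Klf1 (chr8:84901732-84901981, plus strand): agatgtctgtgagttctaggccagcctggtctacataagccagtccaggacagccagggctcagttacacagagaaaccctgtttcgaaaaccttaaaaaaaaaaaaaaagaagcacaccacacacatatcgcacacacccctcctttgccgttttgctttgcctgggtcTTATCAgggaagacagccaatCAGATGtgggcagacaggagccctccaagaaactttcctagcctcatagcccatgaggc
Epor (chr9:21963577-21963826, minus strand): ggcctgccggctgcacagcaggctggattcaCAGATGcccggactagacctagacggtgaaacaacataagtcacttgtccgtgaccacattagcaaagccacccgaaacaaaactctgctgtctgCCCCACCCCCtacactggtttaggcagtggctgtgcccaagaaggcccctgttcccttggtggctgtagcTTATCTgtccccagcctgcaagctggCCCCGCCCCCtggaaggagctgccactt
GATA words were found in 4 of the 7 entries, against 26.5% of 32851 RefSeq promoters, and CCNCNCCC in 5 of 7, against 45.9%. The E-box was found in 2 of 7, against 44.8%, and TGANTCA, the core of the NFE2 site, in 0 of 7, against 6.75%. Klf1 and Epor each held 1 GATA match and 1 E-box. CCNCNCCC matches numbered 3 in Gata1, 4 in Zfpm1, 4 in Epor and 0 in Klf1. These matches describe letters in short windows and do not show binding.

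Depth and composition differed between the groups. Genes received 5527108 to 7182346 counts per library in the early group, 7849602 to 13924361 in the late group and 5862888 to 10796099 in untreated mice. Of these counts, the 4 adult hemoglobin genes (Hbb-bs, Hbb-bt, Hba-a1 and Hba-a2) made up 48.5% ± 10.4 (SD, n = 5) in early, 22.0% ± 6.73 (SD, n = 5) in late and 48.4% ± 12.7 (SD, n = 5) in untreated mice. The label of whole blood was thus met by abundant red cell transcripts in every group. Since a few genes took such unequal shares, library sizes were scaled by the trimmed mean of M values (TMM), and CPM below are counts per 1e6 of the scaled library size. The 18S gene Rn18s-rs5 stood at 313 to 766 CPM, here scaled by the library total, in untreated 2, late 2 and late 3, against at least 13402 in the other 12 libraries. Untreated 5, early 3 and late 5 held the most Scd3, a lipid synthesis gene of skin glands, in their groups. Members' values without these libraries are given beside the results below where they bear on a call.

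**Figure D1:**
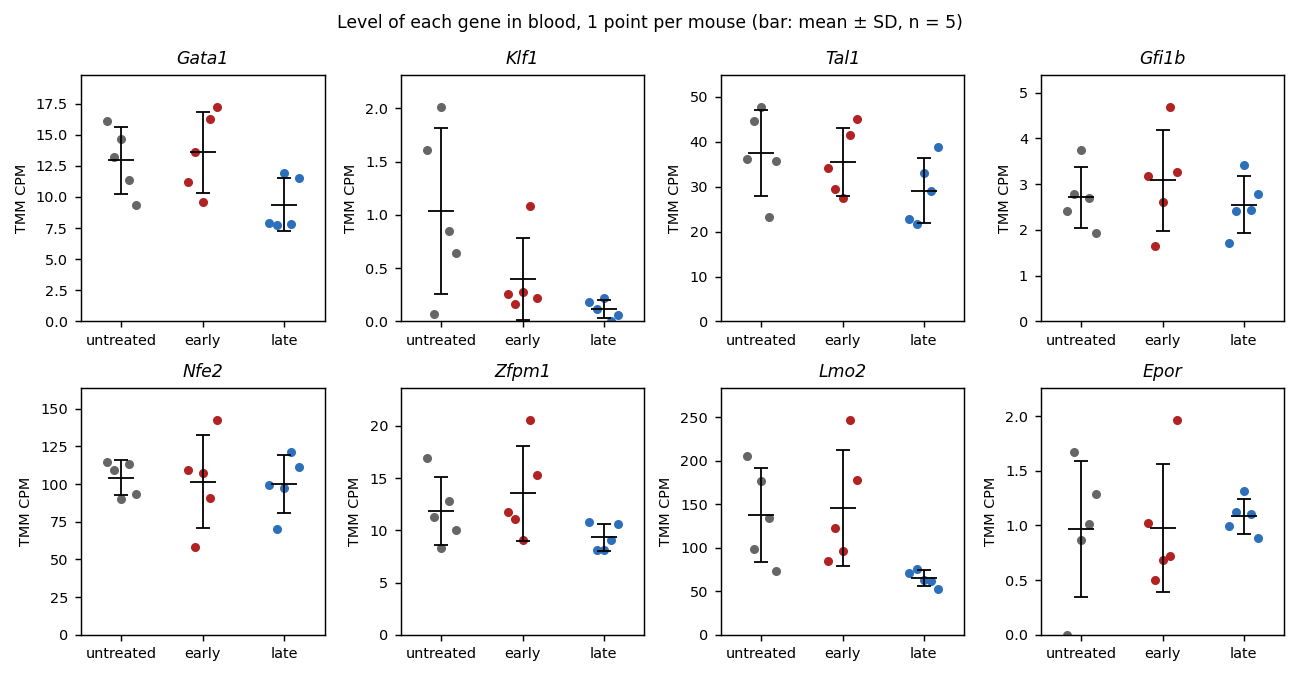
TMM-normalized CPM of the 8 members (one panel each, linear axis from 0) in untreated, early and late mice, with 1 point per mouse and a bar for the mean ± SD, n = 5. The 5 late points of Lmo2, at 52.9 to 76.1 CPM, lie below all 5 early points, while the groups overlap for the other members.

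The members spanned a wide range of level. Per kb of exon, a scale on which genes can be compared, Lmo2 had 58.9 ± 23.3 CPM (SD, n = 5) in untreated mice and Nfe2 31.9 ± 3.57, followed by Tal1 at 7.33 ± 1.87 and Gata1 at 5.21 ± 1.07. Zfpm1 came next at 2.48 ± 0.680 and Gfi1b at 1.48 ± 0.362, and Klf1 at 0.671 ± 0.502 and Epor at 0.433 ± 0.278 came last. The order of neighbours changed between libraries, since Nfe2 exceeded Lmo2 in late 3, late 4 and late 5, Gata1 exceeded Tal1 in untreated 4, and Gfi1b exceeded Zfpm1 in untreated 3 and late 3. The 2 most abundant members code for a bridging protein and for a subunit used in both red cells and platelets, whereas the erythroid activator KLF1 and the erythropoietin receptor were close to the limit of detection. Among the genes tested, 97.1% had a lower level per kb than Lmo2, 95.3% than Nfe2, 77.9% than Tal1 and 70.8% than Gata1. The corresponding shares were 50.7% for Zfpm1, 36.8% for Gfi1b, 10.7% for Epor and 6.92% for Klf1.

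Genes overlapping on the opposite strand limit several of these values, because the strand setting of the counting is not given in the sources used here and reads of such pairs then cannot be told apart. On GRCm39, Klf1 (chromosome 8, 85628557 to 85631934, plus strand) has 52.7% of its exon bases opposite Gcdh, a mitochondrial dehydrogenase gene, which had 7.36 ± 1.86 CPM (SD, n = 5) in untreated mice. Epor (chromosome 9, 21870192 to 21874879, minus strand) has 42.6% opposite Swsap1. Gata1 (chromosome X, 7825499 to 7844310, minus strand) has 13.3% opposite Gm14820, and Lmo2 (chromosome 2, 103788331 to 103812355, plus strand) 9.85% opposite 4931422A03Rik. The annotation places Tal1 on chromosome 4 (114913623 to 114928952, plus strand), Gfi1b on chromosome 2 (28499462 to 28511994, minus strand), Nfe2 on chromosome 15 (103156526 to 103166830, minus strand) and Zfpm1 on chromosome 8 (123008805 to 123065024, plus strand).

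The first comparison asked how the members differed between mice with late and early ND, which received the same antibody. Lmo2 was lower in the late group, and the other tested members did not pass the test. Lmo2, the bridging protein of the GATA1 and TAL1 complex, had 71.3, 76.1, 62.6, 61.2 and 52.9 CPM in late 1 to 5, and 84.6, 123, 96.1, 247 and 178 CPM in early 1 to 5. Every late value lay below every early value, as was so for 2.93% of the 13315 genes tested. On the log2 scale Lmo2 differed by -1.13, with a standard error of 0.26, and the fold was 0.457 (adjusted p = 0.0317, edgeR's quasi-likelihood test, Benjamini-Hochberg over all genes tested). An adjusted p under 0.05 is called below, and 1 of 7 tested members was called lower and 0 higher, where 2.48% of all genes tested were called lower and 2.5% higher. Early 4, with the most Lmo2, also had the largest hemoglobin share of all 15 libraries, 64.1% of gene counts, and the part of hemoglobin in the Lmo2 result was not tested. The call was lost on leaving out early 4, early 5, late 1, late 3, late 4 or late 5 (log2 fold changes of -1.28 to -0.87 and adjusted p of 0.0130 to 0.0787 over the 10 libraries left out in turn, edgeR), and in the 18S-rich libraries, where the value was -1.23 (adjusted p = 0.0734, edgeR). Without the libraries with the most Scd3, an alternative chosen after seeing the data, it was -1.21 and called (adjusted p = 0.0271, edgeR). DESeq2, with all libraries, called Lmo2 lower at -1.17 (adjusted p = 0.000859), as it did 672 of 13315 genes tested.

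Gata1 and its cofactor gene Zfpm1 were lower on average in late mice without passing. Gata1 had 7.90, 7.73, 11.9, 7.83 and 11.5 CPM in late 1 to 5 and 11.2, 13.6, 9.58, 16.2 and 17.2 CPM in early 1 to 5. Late 1, late 2 and late 4 lay below all early values, and late 3 and late 5 overlapped with them. Gata1 differed by -0.48 on the log2 scale, with a standard error of 0.20 (adjusted p = 0.159, edgeR). Without the library of each group with the most Scd3 it was -0.69 and was called (adjusted p = 0.0494, edgeR), and in the 18S-rich libraries it was -0.55 (adjusted p = 0.169, edgeR). Zfpm1 had 10.8, 8.10, 8.10, 9.08 and 10.6 CPM in late 1 to 5 and 11.7, 11.1, 9.03, 20.6 and 15.3 CPM in early 1 to 5, with the late values inside or under the early range. The difference was -0.47 on the log2 scale, with a standard error of 0.20 (adjusted p = 0.165, edgeR), and -0.38 in the 18S-rich libraries (adjusted p = 0.364, edgeR). Scaled by library totals, which put the median of all genes at 0.86, Lmo2 differed by -0.12 (adjusted p = 0.668), Gata1 by 0.43 and Zfpm1 by 0.44, while Tal1, Nfe2 and Epor were called higher (edgeR). On that scale 8923 of all 13315 genes tested were called higher and 137 lower, so these calls are not particular to the members.

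For the remaining members, late and early mice overlapped and no difference was called. Tal1, the helix-loop-helix partner in the complex, had 29.1 ± 7.20 CPM (SD, n = 5) in late and 35.5 ± 7.54 CPM (SD, n = 5) in early mice (log2 fold change -0.25, 95% interval -0.65 to 0.15, adjusted p = 0.442, edgeR). Gfi1b, the repressor, had 2.55 ± 0.616 and 3.08 ± 1.11 CPM (log2 fold change -0.18, interval -0.79 to 0.43, adjusted p = 0.753, edgeR). Nfe2 had 99.9 ± 19.2 and 102 ± 30.7 CPM, a difference of -0.0086 on the log2 scale (interval -0.47 to 0.46, adjusted p = 0.991, edgeR). No late library of Nfe2 lay outside the range of the early libraries. Epor, the receptor, had 1.09 ± 0.160 CPM in late and 0.977 ± 0.583 CPM in early mice (log2 fold change 0.21, interval -0.57 to 0.99, adjusted p = 0.778, edgeR), from 2 to 9 counts in each early library.

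Klf1 was too rare to be tested and no library held 10 counts of it. Late 1 to 5 held 2, 3, 5, 0 and 1 counts, early 1 to 5 held 2, 1, 2, 3 and 1, and untreated 1 to 5 held 4, 1, 7, 5 and 4. Pooled over each group, that is 0.125 CPM (exact Poisson 95% interval 0.0623 to 0.223) in late, 0.315 (0.144 to 0.598) in early and 0.647 (0.401 to 0.989) in untreated mice. These intervals cover counting error only and not the spread between mice. The late interval lies below that of untreated mice and overlaps that of early mice. Without the 18S-poor libraries the pooled level was 1.11 CPM (0.676 to 1.71) in 4 untreated and 0.0743 (0.0153 to 0.217) in 3 late mice, since untreated 2 is the deepest untreated library and held 1 count. The 0 counts in late 4 allow up to 0.222 CPM. Fitted without the filter on low counts, Klf1 was not called in any comparison, at log2 fold changes of -1.33 (late against early, adjusted p = 0.485), -2.73 (late against untreated, adjusted p = 0.123) and -1.37 (early against untreated, adjusted p = 0.717, edgeR).

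**Figure D2:**
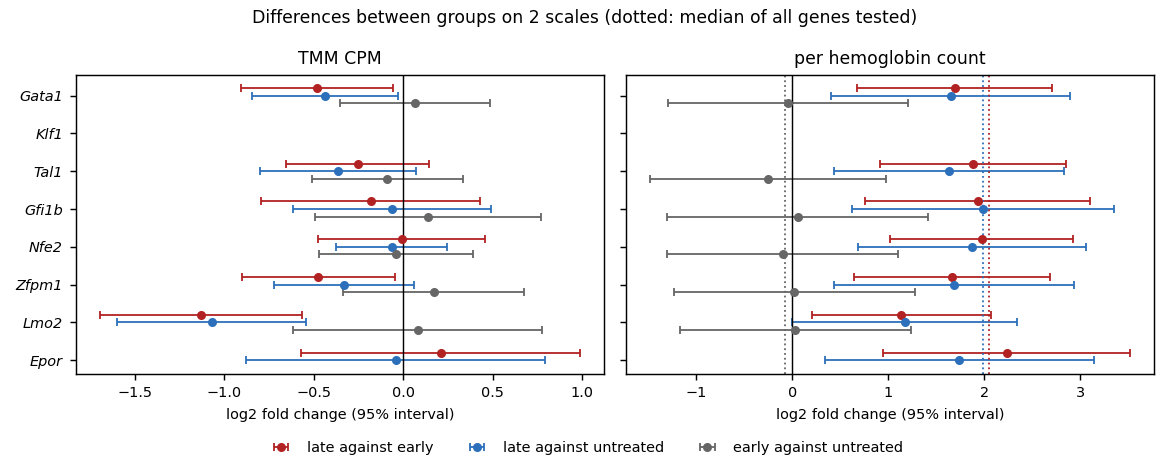
Log2 fold change of each tested member in the 3 comparisons, with bars for the 95% interval, a line at 0 and dotted lines for the median of all genes, on the TMM scale and per hemoglobin count (Klf1 was not tested). On the TMM scale Lmo2 at -1.13 and -1.07 is farthest from 0, and per hemoglobin count the members of both late comparisons lie above 0.

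The second comparison set late mice against untreated mice. It carries the antibody, and ND together with it if blood was drawn after the late ND, which is unsettled. Lmo2 was again the member called, and the late libraries are those of the first comparison, so the pair of results is not independent. Lmo2 had 205, 99.1, 176, 134 and 72.7 CPM in untreated 1 to 5, and late 1, 3, 4 and 5 lay below all of them, with late 2 above untreated 5. It differed by -1.07 on the log2 scale, with a standard error of 0.24 (adjusted p = 0.0383, edgeR). Untreated 1 and untreated 3, the untreated libraries with the most Lmo2, had hemoglobin shares of 60.0% and 61.7%. The call covered 1 of 7 tested members, lower, where 2.01% of 13547 genes tested were called lower and 0.989% higher. It was lost on leaving out untreated 1, untreated 3, untreated 4 or any late library (log2 fold changes of -1.23 to -0.88, adjusted p of 0.00426 to 0.106, edgeR) and in the 18S-rich libraries (-1.26, adjusted p = 0.13, edgeR), as well as in 1 fit over 3 groups (-1.08, adjusted p = 0.0653, edgeR), and with library totals the value was 0.026. DESeq2, with all libraries, called Lmo2 lower at -1.09 (adjusted p = 0.000805), as it did 534 of 13547 genes tested.

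Gata1 had 16.1, 13.2, 14.7, 11.3 and 9.35 CPM in untreated 1 to 5 (log2 fold change of late against untreated -0.44, adjusted p = 0.252, edgeR). Late 1, late 2 and late 4 lay below every untreated library. Tal1 at -0.36 (adjusted p = 0.398) and Zfpm1 at -0.33 (adjusted p = 0.390) had intervals reaching from -0.80 to 0.072 and from -0.72 to 0.060 (edgeR). Nfe2, with 104 ± 11.7 CPM (SD, n = 5) in untreated mice, differed by -0.064 (interval -0.37 to 0.24, adjusted p = 0.882, edgeR). For Gfi1b and Epor the values were -0.064 (adjusted p = 0.994) and -0.042 (adjusted p = 0.982, edgeR), and Epor had 0 counts in untreated 1, which allows up to 1.21 CPM.

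The third comparison, early against untreated mice, gave no called member among the 6 tested, with Klf1 and Epor under the filter. Of these, 0 had an unadjusted p under 0.05 in edgeR's test, and DESeq2 also called 0. Log2 fold changes ran from -0.09 for Tal1 to 0.17 for Zfpm1, with adjusted p of 0.953 to 0.992 (edgeR). Lmo2 differed by 0.080, with an interval from -0.62 to 0.78. Across all 12151 genes tested 0% were called higher and 0% lower, while 256 were higher and 283 lower at an unadjusted p under 0.05.

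**Figure D3:**
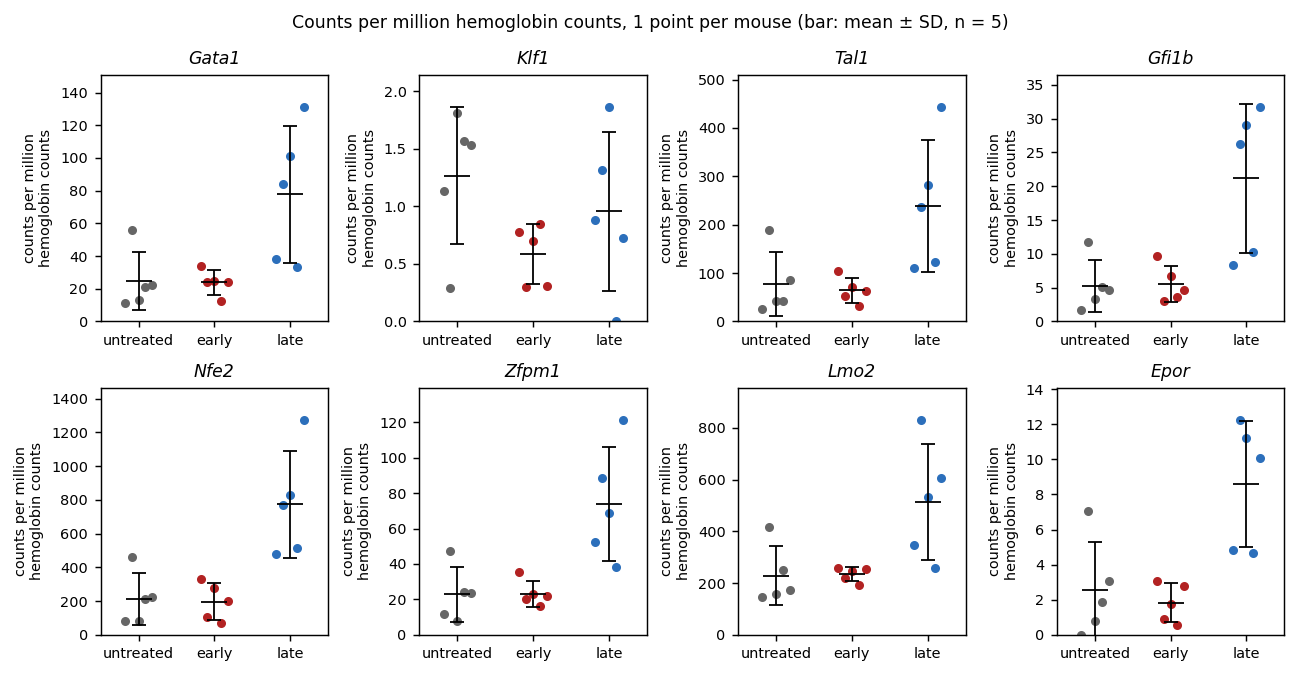
Counts of each member per 1e6 hemoglobin counts in untreated, early and late mice (linear axis from 0), with 1 point per mouse and a bar for the mean ± SD, n = 5, cut at 0 where it would go below. Late Gata1 values of 33.1 to 131 stand beside early values of 12.7 to 34.0.

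Setting the members against hemoglobin counts asks how the factors stood relative to the main product of red cells. Per 1e6 hemoglobin counts, Gata1 had 77.7 ± 41.9 (SD, n = 5) in late, 24.0 ± 7.56 in early and 24.7 ± 18 in untreated mice. Lmo2 had 515 ± 225, 234 ± 26.7 and 228 ± 113. In late against early mice 7 of 7 tested members were called higher on this scale, with log2 fold changes from 1.14 for Lmo2 to 2.23 for Epor, but so were 97.2% of all 13315 genes tested, with 0.00751% called lower. The median of all genes was 2.05, so the members' share is near the background and Lmo2 lay below that median. Against untreated mice 6 of 7 members were called higher, as were 95.4% of genes tested, with 0% lower. Lmo2 at 1.17 missed the threshold there (adjusted p = 0.0520, edgeR). In the 18S-rich libraries 5 of 6 tested members were called higher in each of these comparisons, and without the most Scd3 7 of 7 against early and 3 of 7 against untreated mice. The share of all genes called in these settings is not given, so these counts are not a result about the members. In early against untreated mice 0 members were called per hemoglobin count, and 0% of genes in either direction. Klf1, which was not tested, had 0.930 counts per 1e6 hemoglobin counts in late (exact Poisson 95% interval 0.464 to 1.66), 0.578 (0.264 to 1.10) in early and 1.27 (0.783 to 1.93) in untreated mice, with intervals that overlap.

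**Figure D4:**
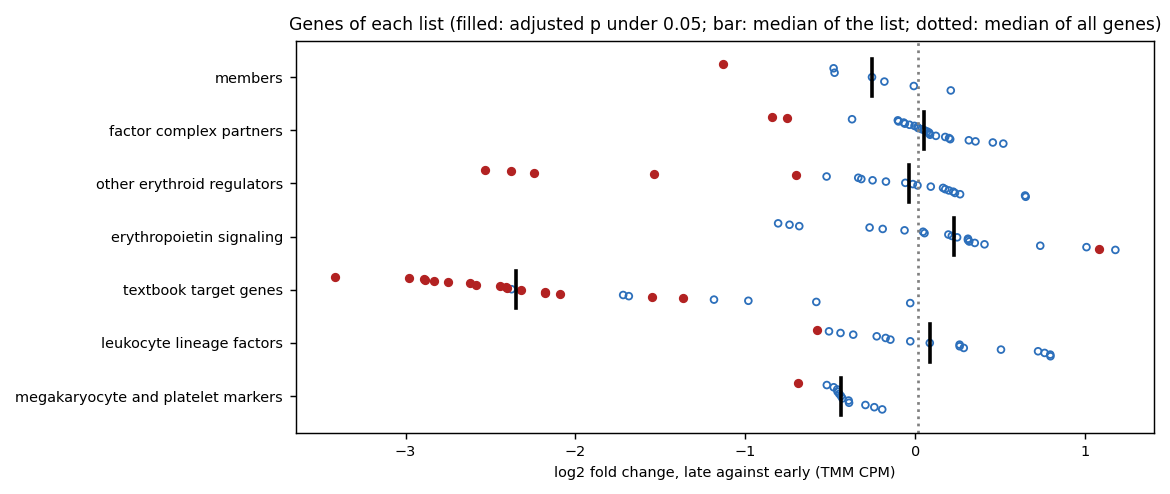
Log2 fold changes of late against early mice for the tested genes of each list, with filled points for called genes, a bar for the list median and a dotted line for the median of all genes. The target genes spread around a median of -2.35, whereas the medians of the partners, at 0.054, and the leukocyte factors, at 0.085, lie near 0. Single genes go both ways, from -0.84 to 0.52 among the partners and from -0.58 to 0.80 among the leukocyte factors.

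Most tested genes that these factors are known to drive were called lower in late mice. Of 24 tested textbook target genes, 17 were called lower in late than in early mice and 0 higher, with a median log2 fold change of -2.35 against 0.014 over all genes and 2.48% of all genes called lower. The list was chosen with earlier results of these data known, so this contrast with all genes is a description and not an independent test. Add2, a gene of the red cell skeleton, fell by 2.98 on the log2 scale (adjusted p = 0.0126, edgeR), from 6.17 ± 3.28 to 0.786 ± 0.516 CPM (SD, n = 5). Trim10 fell by 2.89 and Epb42, the gene of protein 4.2, by 2.89 (adjusted p of 0.0178 for each, edgeR). Of the globin genes, Hbb-bt was called lower at -2.44 (adjusted p = 0.0392), while Hbb-bs at -2.38 and Hba-a1 at -1.72 were not called (adjusted p of 0.143 and 0.154, edgeR). The copies of the globin genes are so alike that the split of their counts is uncertain. In bulk blood, fewer cells of a type and less RNA per cell cannot be told apart. Per hemoglobin count, Add2 differed by -0.92 and Epb42 by -0.71, where the median of all genes was 2.05. Against untreated mice, 14 of the 24 were called lower and 0 higher, where 2.01% of all genes tested were called lower. In the 18S-rich libraries 0 targets were called in either comparison by edgeR, although 20 of 25 tested against early and 21 of 24 against untreated mice had an unadjusted p under 0.05, with medians of -2.12 and -2.39. For these unadjusted counts, here and in the lists below, the share of all genes in the 18S-rich libraries is not given. With all libraries, 1921 genes were higher and 1242 lower at that level of 13315 tested against early mice. Against untreated mice they were 1177 and 1122 of 13547. DESeq2, with all libraries, called 22 of 24 lower in each comparison. Over all genes it called 672 of 13315 lower against early and 534 of 13547 lower against untreated mice. Leaving out early 4, late 3 or late 5 reduced the count against early mice to 8, 7 and 11. Over all genes, 113 of 13800, 106 of 13323 and 180 of 13278 were called lower in these fits. Against untreated mice the count was 0 without untreated 3 or any late library, where 0 of all genes tested were called lower. It was 7 without untreated 1 and 6 without untreated 4, where 110 of 14150 and 120 of 14090 genes were called lower.

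Of 22 tested other erythroid regulators, 5 were called lower and 0 higher in late than in early mice, with a median of -0.036 and 2.48% of all genes called lower. This list too was chosen with earlier results known, so the contrast is a description. In the 18S-rich libraries 0 of 22 were called by edgeR, with 8 at an unadjusted p under 0.05, and leaving out 1 library left from 2 (without late 3) to 5 lower. Without early 4, late 1, late 4 or late 5, 3 were called lower. Over all genes, 113, 214, 162 and 180 were called lower in these 4 fits and 106 without late 3, of 13278 to 13800 tested. Tent5c, a poly(A) polymerase gene, fell by 2.53 on the log2 scale (adjusted p = 0.0124, edgeR), from 1153 ± 566 to 196 ± 65.7 CPM (SD, n = 5). Hemgn fell by 2.38, Tfdp2 by 2.24, Trim58 by 1.54 and Mxi1 by 0.70 (adjusted p of 0.0126 to 0.0469, edgeR). Tfdp2 encodes a dimerization partner of E2F proteins, and Trim58 a ubiquitin ligase of late erythroblasts. Per hemoglobin count, Tent5c differed by -0.39, Hemgn by -0.17, Tfdp2 by -0.029 and Trim58 by 0.68. These values lay below the median of 2.05 that all genes showed, and Mxi1 is not given on this scale. Ikzf1 at 0.091 and Klf13 at 0.65 were not called (adjusted p of 0.644 and 0.0540, edgeR).

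Few partners of the factors in chromatin complexes were called. Of 25 tested, 2 were called lower and 0 higher, where 2.48% of all genes were called lower, with a median of 0.054: Ssbp2 at -0.84 and Ssbp3 at -0.75 (adjusted p of 0.0178 and 0.0418, edgeR), which code for proteins that bind LDB1, a partner of LMO2. Chd4, of the NuRD complex, at 0.038 and Ep300, an acetyltransferase gene, at 0.46 were not called (adjusted p of 0.865 and 0.0532, edgeR). Against untreated mice Ssbp2 and Ssbp3 were not called (adjusted p of 0.346 and 0.126, edgeR), and 1 partner was called higher and 0 lower. Of all genes tested there, 0.989% were called higher. In the 18S-rich libraries 0 partners were called against early mice by edgeR, with 5 at an unadjusted p under 0.05, and 1 was called lower without early 2, early 4, early 5, late 1, late 3 or late 4. Of 20 tested erythropoietin signaling genes, 1 was called higher and 0 lower, with a median of 0.23, where 2.5% of all genes were called higher. It was Csf2rb at 1.08 (adjusted p = 0.0392, edgeR), coding for the common beta chain of receptors for GM-CSF and related cytokines. Neutrophil markers (7 of 9 above 0, median 1.07, summed level 5601 to 14914 CPM in late and 2315 to 7277 in early libraries) and monocyte markers (5 of 5 above 0, median 0.75, 759 to 1224 against 420 to 1017 CPM) moved with Csf2rb, and their part was not tested. Against untreated mice 0 genes of the list were called higher and 1 lower, where 2.01% of all genes were called lower. In the 18S-rich libraries 0 were called by edgeR, with 7 at an unadjusted p under 0.05, and 0 were called higher without early 1, 2 or 4 or late 1, 3, 4 or 5. Of 17 tested leukocyte lineage factors, 1 was called lower and 0 higher, where 2.48% of all genes were called lower. It was Lef1 at -0.58 (adjusted p = 0.0292, edgeR), a factor of T cells. Its list had a median of 0.085, with 9 genes above 0 and 8 below. All 7 T cell markers lay below 0 as well (median -0.27, summed level 194 to 238 CPM in late and 168 to 324 in early libraries), and their part was not tested. In the 18S-rich libraries 0 of the 17 were called by edgeR, with 7 at an unadjusted p under 0.05, and the call was also lost without early 2, 4 or 5 or late 1, 3, 4 or 5. The unadjusted counts in this paragraph lack the share of all genes in the 18S-rich libraries. With all libraries, 1921 genes were higher and 1242 lower at that level, of 13315. With 1 library left out, from 36 to 1057 of all genes were called higher and from 106 to 553 lower in late against early mice.

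Since platelets also hold several of these factors, platelet markers were set beside Lmo2. Of 13 tested, 0 were called higher and 1 lower in late than in early mice, all 13 had a log2 fold change below 0, and the median was -0.44 (0.43 with library totals, which turned all 13 above 0). Of all genes tested, 2.5% were called higher and 2.48% lower, with a median of 0.014. Gp6, the collagen receptor, fell by 0.69 (adjusted p = 0.0420, edgeR), while Ppbp at -0.48 and Pf4 at -0.39 were not called. The 1 call was lost in the 18S-rich libraries and on leaving out any library but early 2 or early 3. The summed level of the 14 markers ran from 1913 to 2951 CPM in late, 2567 to 4710 in early and 2208 to 3680 in untreated libraries, and 1 of the 14 was at 0 in every library. Their part in the Lmo2 result was not tested.

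The genes whose centred log2 CPM followed each member most closely over the 15 libraries were ranked by the root mean square difference, over 13415 genes. This is a description, since all genes of a library share its depth and composition. Nearest to Lmo2 were Ftl1, the ferritin light chain gene, at 0.168, Gm10252 at 0.176 and Pabpc4, a poly(A)-binding protein gene, at 0.176. Gata1 was nearest to Mxi1 at 0.172, Nptn at 0.191 and Prkca at 0.193, and Tal1 to Slamf1 at 0.174, Nudt3 at 0.182 and Homer3 at 0.186. Nfe2 was nearest to Rab6a at 0.126, Ston2 at 0.142 and Rac1 at 0.15. Zfpm1 was nearest to Rint1 at 0.186, Rab18 at 0.202 and Hspa4l at 0.220, and Gfi1b to Fer at 0.233, Isy1 at 0.237 and Laptm4a at 0.244.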

How the data were processed

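RNA of 15 peripheral blood samples was sequenced with paired-end reads. The authors aligned reads with STAR 2.7.9, sorted with SAMtools 1.7 and deposited raw counts of read pairs per gene from HTSeq 0.13.5, 1 file per mouse and without normalization. The labels name GRCm39 for the index, and the submitters' processing notes list mm10 beside it. The annotation release and strand setting are not given in the sources used here. Of 55416 gene IDs, 54749 matched GENCODE vM39, which gave symbols and positions, and 667 did not. HTSeq's counters of unassigned pairs were left out of library sizes; pairs in no feature made up 50.6 to 55.1% of uniquely aligned pairs. Positions are those of GRCm39.

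Each pair of groups was fitted with edgeR 4.0.16 (R 4.3.3), with filterByExpr, TMM and quasi-likelihood tests, and Benjamini-Hochberg adjustment over all genes tested. Hemoglobin-scaled fits used the counts of 4 hemoglobin genes as library size. The fit was tested on simulated data in which both groups shared a mean profile apart from the changed genes. The difference in hemoglobin share between late and early mice was not part of that simulation. With 1 library per mouse, p-values measure the spread between mice. The 8 members and the lists were chosen with earlier results of these data known. Named genes were the members, up to 4 called genes per list with the largest change in late against early mice and up to 2 others with the highest CPM, and the 3 genes nearest to each member. One gene that this rule names is not reported here. Alternatives were DESeq2 1.42.0, RLE factors, library totals, TMM without hemoglobin and 18S genes, other filters (none, or 10 counts in every library), 1 fit over all groups, a replicate block, 18S-rich libraries (at least 5000 CPM of Rn18s-rs5), each library left out, and, chosen after seeing the data, leaving out the libraries with the most Scd3. Counts over the lists were recomputed under the same settings after seeing the data. Intervals for counts are exact Poisson.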

Additional observations from a re-analysis of the deposited data

Results flagged for a closer look

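In early mice, Klf1 in early 4 stood apart from the other libraries of its group, at 1.08 CPM against at most 0.274. It rests on 3 counts, and 1 count was worth 0.361 CPM there. In all, 24 combinations of 8 members and 3 groups were examined, and chance marks about 5% of such groups.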

How the results depend on the processing

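Of 392 recomputed member log2 fold changes, 350 kept their direction. Library totals, which moved the median of all genes to 0.86 (late against early) and 0.91 (late against untreated), reversed most: late against early, Gata1 to 0.43, Tal1 0.64, Gfi1b 0.70, Nfe2 0.82 and Zfpm1 0.44; late against untreated, Gata1 0.52, Tal1 0.55, Gfi1b 0.86, Nfe2 0.83, Zfpm1 0.61, Lmo2 0.026 and Epor 0.74; early against untreated, Nfe2 0.0020. Members near 0 also turned: Nfe2 in late against early to 0.067 without a filter, 0.12 in 18S-rich libraries and 0.034 with the replicate block, Nfe2 in late against untreated to 0.090 in 18S-rich libraries, Epor in late against untreated to 0.030 without a filter, 0.018 with the block and 0.049 without the most Scd3, and Lmo2 in early against untreated to -0.018 in 18S-rich libraries. Members called in late against early (main 1) were 3 with library totals, 0 in 18S-rich libraries, 0 with the block and 2 without the most Scd3. In late against untreated (main 1) they were 0 with 1 fit over 3 groups and 0 in 18S-rich libraries, and per hemoglobin count 3 without the most Scd3 in place of 6 (share of all genes there not given). With library totals the number stayed at 1, but the member was Nfe2, called higher at 0.83 (adjusted p = 0.0439, edgeR). On that scale 7484 of 13547 genes were called higher. Genes called in late against early (663) were 1438 with DESeq2, 9060 with library totals (8923 higher, 137 lower), 1282 without a filter, 4 in 18S-rich libraries and 1214 without the most Scd3; RLE factors gave 201 higher and 338 lower, and TMM without hemoglobin and 18S 228 and 344. In late against untreated (406) they were 808 with DESeq2, 7574 with library totals and 0 in 18S-rich libraries, and in early against untreated 3 with library totals in place of 0. The cause was not tested. The 18S-rich sets and the sets without the most Scd3 both held fewer libraries than the main fits.

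With each library left out in turn, members called ranged from 0 to 1 in late against early and from 0 to 1 in late against untreated, and genes called from 145 to 1610 and from 0 to 593. Directions turned within these ranges: Nfe2 in late against early, -0.16 to 0.16; Gfi1b, Nfe2 and Epor in late against untreated, -0.19 to 0.049, -0.15 to 0.026 and -0.22 to 0.29; and in early against untreated Gata1 -0.042 to 0.17, Tal1 -0.22 to 0.00094, Gfi1b -0.0096 to 0.30, Nfe2 -0.19 to 0.10, Zfpm1 -0.00081 to 0.29 and Lmo2 -0.19 to 0.26. None of these was called.

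Same-numbered correlations ran from -0.18 to 0.46 (late against early), 0.029 to 0.58 (late against untreated) and -0.24 to 0.080 (early against untreated). In that order, 2, 5 and 0 of 10 libraries correlated best with their own number. Replicate numbers thus showed no pairing in late against early or in early against untreated. In late against untreated every same-numbered correlation lay above 0 (mean 0.24), so whether the numbers pair those samples is not settled. The highest, 0.58, was between untreated 5 and late 5, which each held the most Scd3 of their group. With the replicate block, Lmo2 was -1.03 (adjusted p = 0.0585, edgeR) in late against early and -0.99 (adjusted p = 0.0128) in late against untreated. Low counts limit Klf1 and Epor most.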
